A study of Mus musculus with 13 samples.

Results

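Transcripts of 10 neutrophil granule genes were followed in bone marrow (BM) progenitors of mice with mutant p53, oncogenic Nras, or both. The genes form a primary set of 5, Mpo, Elane, Prtn3, Ctsg, and Ms4a3, and a later set of 5, Ltf, Camp, Ngp, S100a8, and S100a9. They were chosen by name, with earlier results of these data known. All 10 were in the deposited count table of 54838 genes and among the 17795 genes with enough counts to be tested. RNA-Seq had been carried out on 50000 sorted Lin-cKit+ BM cells of each of 13 C57BL/6J mice, a fraction of hematopoietic stem and progenitor cells (HSPCs) that lack lineage markers and carry the receptor Kit. Control mice (n = 3) carried Mx1-Cre alone, p53mut mice (n = 3) Mx1-Cre with p53 R172H/+, and NrasG12D mice (n = 3) Mx1-Cre with Nras G12D/+ (the genotype field of these samples spells the allele G21D, their titles G12D). These 3 groups were given 3 intraperitoneal doses of 100 µg polyinosinic-polycytidylic acid (pI-pC), starting at about 6 weeks of age, and were age-matched. NPmut mice (n = 4) carried Mx1-Cre with both mutant alleles, had no treatment according to the labels, and were moribund. Cre is driven by the interferon-inducible Mx1 promoter, which is not restricted to blood cells and which pI-pC switches on, and both mutant alleles sit at their own loci behind a stop cassette that Cre removes. Genotype, lack of pI-pC, and disease stage of NPmut mice therefore cannot be told apart in any comparison with them.

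Neutrophil granules are filled in the order in which their proteins are made. Promyelocytes make the contents of primary (azurophilic) granules, which include myeloperoxidase and the serine proteases elastase, proteinase 3, and cathepsin G, and transcription of these genes already starts in granulocyte-monocyte progenitors. Myelocytes and later stages switch to the contents of secondary and tertiary granules, such as lactoferrin and cathelicidin, and to the abundant cytosolic calprotectin subunits. Progenitors gated on Kit are therefore a compartment in which the primary genes are known to be active, while the later genes belong mainly to cells that have lost Kit. Ms4a3 encodes a membrane protein of granulocyte-monocyte progenitors and S100a8 and S100a9 encode cytosolic proteins, so that these members mark the same stages without being granule contents in the strict sense.

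The libraries held 12576174 to 29124022 counts, with the lowest and the highest total both among NPmut mice. Kit, on which the cells were sorted, was at 28.7 to 82.6 RPKM in every mouse, and Cd34, a progenitor marker that was not part of the gate, at 25.2 to 50.7 RPKM (counts scaled by exonic length and library total). Ly6g, which mature mouse neutrophils carry, had between 0 and 7 counts in a library. The summed level of 9 monocyte markers was 1790.2 to 2683 CPM (counts scaled by library size) in NPmut mice and 538 to 1075 CPM in the other groups. Megakaryocyte markers (4 genes) summed to 12.3 to 59.5 CPM in NPmut mice against 110.3 to 215 CPM elsewhere, and erythroid markers (6 genes) to 52.4 to 254 CPM against 279 to 544.5 CPM. Gp1bb of the megakaryocyte list had at most 4 counts in a library. It was at 0 in all NPmut mice and also in mice of every other group. The part of these shifts in the values below was not tested. In RNA from a sorted pool, fewer cells of a type and less RNA per cell cannot be told apart.

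The 10 genes lie on 6 chromosomes, and several of them are neighbors (GRCm38 coordinates, GENCODE M21). Prtn3 (chr10:79874476-79883174) and Elane (chr10:79886247-79888215), both on the plus strand, are separated by 3.07 kb, and S100a8 (chr3:90668978-90670035, plus strand) and S100a9 (chr3:90692632-90695721, minus strand) by 22.6 kb. Mpo (chr11:87793581-87804413, plus strand), Ctsg (chr14:56099881-56102574, minus strand), and Ms4a3 (chr19:11629496-11640851, minus strand) stand apart from the other members. Camp (chr9:109847379-109849617, minus strand), Ngp (chr9:110419747-110423012, plus strand), and Ltf (chr9:111019271-111042767, plus strand) follow each other on chromosome 9 with 570.1 and 596 kb between them. Mpo overlaps the antisense gene Gm11505 over 5361 bases and Prtn3 overlaps Plppr3 on the opposite strand over 159 bases. Since the strand setting of the counting is not given in the sources used here, reads of these partners cannot be told apart from theirs.

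Promoter windows from 250 bases before to 50 bases after the RefSeq start (GRCm38.p6) were available for all 10 members and were searched on both strands for 4 short motifs, which were chosen with these sequences in view. GGAAGT, a form of the core bound by ETS factors such as PU.1, occurred in 5 of 5 primary and 2 of 5 later windows, and in 23.8% of all 32851 windows. TTNCNNAA, a loose form of the C/EBP motif, occurred in 1 primary and 4 later windows and in 40.7% of all windows. AACGG, the core bound by MYB, occurred in 2 primary windows (Elane and Prtn3), in no later window, and in 17.4% of all windows, and TGTGGT, bound by RUNX factors, in 1 primary and 2 later windows and in 16.8% of all windows. A match of such short letters is a description and not a binding site. The stretch around the GGAAGT match that lies nearest the start among those upstream of it and outside annotated exons is printed for the 5 primary genes because they share it. Capitals mark the match. Ms4a3 has a further match 17 bases past its start, which is not shown.
Mpo (chr11:87793534-87793580, plus strand): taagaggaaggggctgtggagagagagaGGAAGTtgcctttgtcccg
Elane (chr10:79886187-79886246, plus strand): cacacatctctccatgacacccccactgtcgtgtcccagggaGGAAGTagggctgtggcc
Prtn3 (chr10:79879547-79879606, plus strand): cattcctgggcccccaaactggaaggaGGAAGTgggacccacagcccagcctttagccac
Ctsg (chr14:56102747-56102806, minus strand): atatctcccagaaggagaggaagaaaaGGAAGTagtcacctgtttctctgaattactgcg
Ms4a3 (chr19:11640874-11640933, minus strand): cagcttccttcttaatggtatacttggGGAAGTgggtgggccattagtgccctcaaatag
In these stretches the match began 222 bases before the RefSeq start of Mpo, 83 before that of Elane, 93 before that of Prtn3, 205 before that of Ctsg, and 55 before that of Ms4a3. In Ms4a3 it overlaps a TTNCNNAA match on the other strand. The TTNCNNAA match nearest the start and outside exons is printed in the same way for the 4 later genes that have one, since 4 of 5 later and 1 of 5 primary windows hold it. In Ltf and S100a8 it lies on the opposite strand.
Ltf (chr9:111019191-111019250, plus strand): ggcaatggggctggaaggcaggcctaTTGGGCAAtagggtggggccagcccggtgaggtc
Ngp (chr9:110419680-110419739, plus strand): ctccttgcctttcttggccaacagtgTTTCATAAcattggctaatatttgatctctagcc
S100a8 (chr3:90668918-90668977, plus strand): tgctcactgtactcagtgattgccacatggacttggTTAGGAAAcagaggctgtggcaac
S100a9 (chr3:90695818-90695877, minus strand): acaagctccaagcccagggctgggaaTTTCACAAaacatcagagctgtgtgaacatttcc
These matches began 75 bases before the start of Ltf, 102 before that of Ngp, 117 before that of S100a8, and 130 before that of S100a9. The Camp window held none of the 4 motifs, which says only that these letters are not in it.

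Levels were compared between genes per length, as RPKM. Mpo, whose enzyme makes hypochlorous acid, had a mean of 3264 RPKM over the 13 mice, which was rank 12 of all genes tested, and took 0.796% to 1.598% of all counts of a library. The 3 serine proteases followed, Elane with 1221 RPKM, Ctsg with 556 RPKM, and Prtn3 with 288 RPKM. Ms4a3 had 58.6 RPKM and lay within the range of the later set. S100a9, a subunit of calprotectin, was the highest later gene with 68.3 RPKM, ahead of its partner S100a8 with 28.4 RPKM and of the cystatin-like Ngp with 27.7 RPKM. Camp, the precursor of the cathelicidin peptide, had 9.07 RPKM, and Ltf, the iron binding lactoferrin, had 6.21 RPKM. In every genotype the means kept the order Mpo, Elane, Ctsg, Prtn3, and each of these genes was above the next in every mouse. Below them, S100a9, S100a8, and Ngp were each above both Camp and Ltf in all 13 mice, but the order within these groups and the place of Ms4a3 changed from mouse to mouse. S100a9 was above Ms4a3 in 1 of 3 control and 3 of 4 NPmut mice, and S100a8 and Ngp overlapped in all 4 groups.

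The primary genes spanned a few-fold between mice. The level of Mpo was 10448, 12176, and 9689.6 CPM in control mice 1 to 3, 8512, 15271, and 7702 CPM in p53mut mice, 8602, 8973, and 12421 CPM in NrasG12D mice, and 12224, 17944, 11841, and 10644.5 CPM in NPmut mice 1 to 4 (CPM here use library sizes scaled by TMM). All 4 groups overlapped. Elane was at 987, 1349, and 1053 CPM in control, 671, 1582, and 688 CPM in p53mut, 765, 768, and 1308 CPM in NrasG12D, and 1303, 2591, 1209.9, and 1575 CPM in NPmut mice. Its highest value was in NPmut mouse 2 and its lowest in p53mut mice 1 and 3, and each NPmut value lay within or above the range of the control mice. Prtn3 was at 503, 537, and 417 CPM in control, 348, 617, and 301 CPM in p53mut, 320.2, 367, and 461 CPM in NrasG12D, and 570.2, 1208, 459, and 485 CPM in NPmut mice. The groups overlapped, with NPmut mouse 2 again above all others.

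Ctsg was the member whose groups separated best. It was at 540.3, 605, and 499.8 CPM in control, 443, 665, and 354 CPM in p53mut, 440.1, 428, and 519 CPM in NrasG12D, and 633, 1072, 645, and 711 CPM in NPmut mice. Every NPmut mouse was above every control and every NrasG12D mouse, whereas p53mut mouse 2 lay within the NPmut range. Ms4a3 was at 121, 125, and 110.2 CPM in control, 99.3, 146, and 77.004 CPM in p53mut, 71.2, 64.5, and 113 CPM in NrasG12D, and 108, 199.6, 106, and 107 CPM in NPmut mice. Of the NPmut mice, 3 were below all control mice and mouse 2 was above all mice of the series. From the lowest to the highest of the 13 mice, the primary genes spanned 2.33-fold (Mpo) to 4.02-fold (Prtn3).

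The later genes differed far more. Ltf was at 59.3, 11.5, and 17.6 CPM in control, 27.3, 11.9, and 23.8 CPM in p53mut, 9.44, 2.95, and 17.2 CPM in NrasG12D, and 22.7, 30.7, 2.52, and 43.3 CPM in NPmut mice. Its highest value was in a control mouse and its lowest in an NPmut mouse. Camp, the member with the fewest counts (4 to 453 a library), was at 13.9, 2.72, and 3.26 CPM in control, 5.24, 1.47, and 6.60 CPM in p53mut, 3.13, 0.262, and 2.27 CPM in NrasG12D, and 6.82, 17.5, 1.29, and 27.7 CPM in NPmut mice. The groups overlapped, and the extremes were NrasG12D mouse 2 and NPmut mouse 4. Ngp was at 86.6, 14.1, and 25.5 CPM in control, 38.3, 12.61, and 33.1 CPM in p53mut, 14.2, 2.49, and 22.6 CPM in NrasG12D, and 37.3, 67.5, 5.09, and 87.3 CPM in NPmut mice. Control mouse 1 and NPmut mouse 4 were nearly level at the top.

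The calprotectin genes moved with the others. S100a8 was at 44.0, 19.3, and 16.4 CPM in control, 21.6, 10.8, and 17.9 CPM in p53mut, 8.51, 1.77, and 12.4 CPM in NrasG12D, and 18.0, 41.8, 6.17, and 41.0 CPM in NPmut mice. S100a9 was at 91.4, 19.0, and 22.8 CPM in control, 38.1, 12.9, and 36.2 CPM in p53mut, 10.1, 3.93, and 17.9 CPM in NrasG12D, and 36.4, 93.3, 3.54, and 87.2 CPM in NPmut mice. For both genes every NrasG12D mouse was below every control mouse. NPmut mice lay within and below the control range of S100a8, and on both sides of it for S100a9. The later genes spanned 23.5-fold (Ltf) to 106-fold (Camp) over the 13 mice. The 2 mice with the lowest later genes were NrasG12D mouse 2 and NPmut mouse 3, and the same 2 libraries held 174 and 347 counts for the whole later set, against 673 to 6504 in the other mice. Counts of the Y-linked gene Ddx3y were high in 5 mice, as in males (854 to 1036 counts, against 2 to 20 in the others). These 5 included both mice with the lowest later mean and both with the highest, NPmut mouse 4 and control mouse 1.

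**Figure D1:**
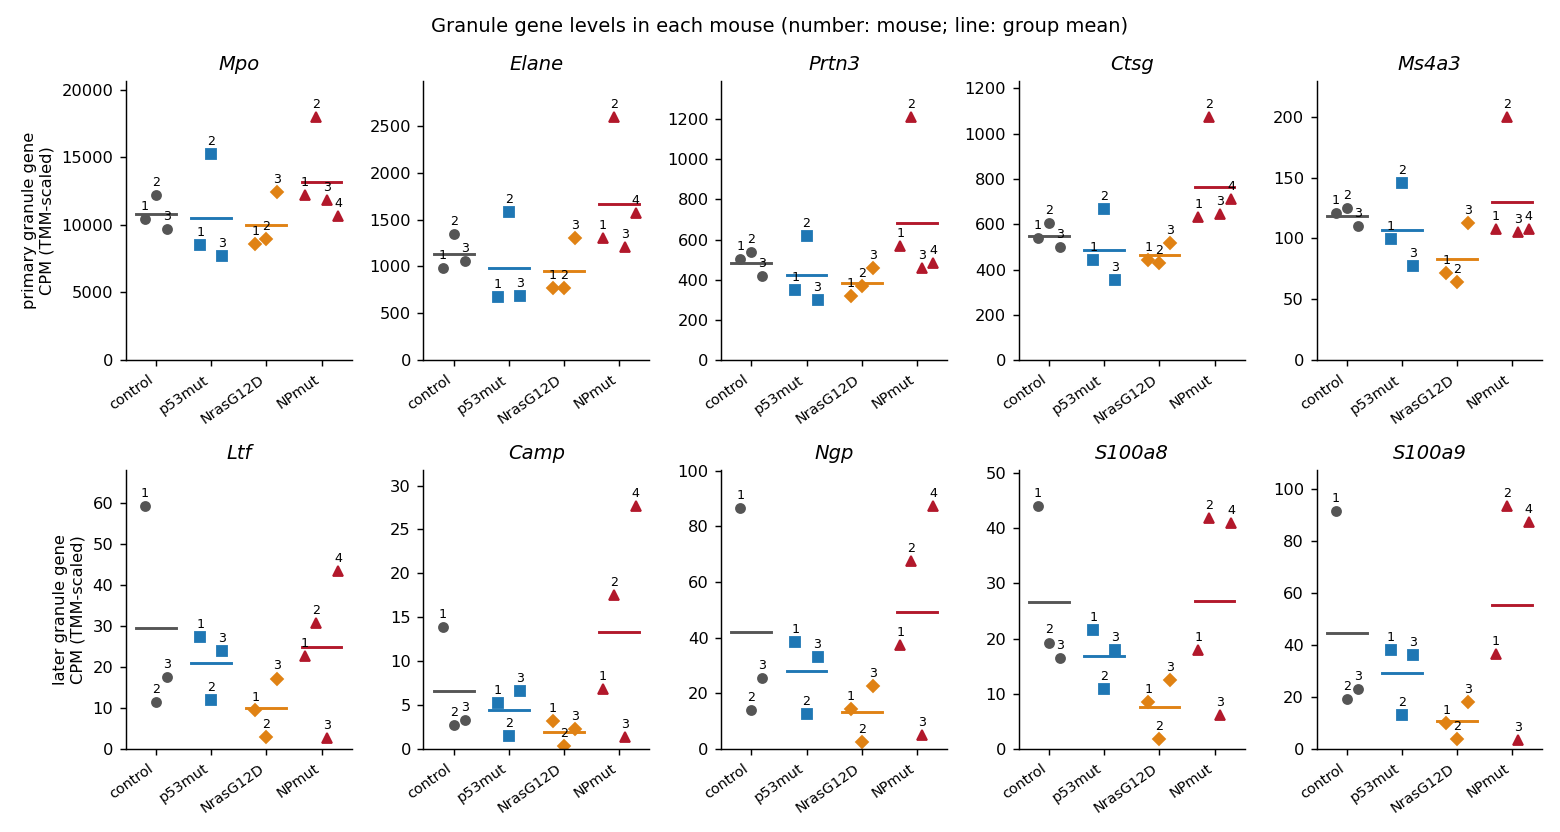
Level of each member in each mouse, in CPM on a linear axis from 0, with 1 panel per gene (top row primary, bottom row later), 1 point per mouse with its number, and a line at the group mean. Primary genes lay within 4.02-fold over all mice with NPmut mouse 2 at the top, and later genes spanned up to 106-fold, with control mouse 1 and NPmut mice 2 and 4 at the top and NrasG12D mouse 2 and NPmut mouse 3 at the bottom.

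NPmut HSPCs did not differ from control HSPCs in any granule gene by the thresholds used here, an adjusted p-value (Benjamini-Hochberg over all genes tested) under 0.05 and a change of at least 2-fold. None of the 10 members was called by edgeR's quasi-likelihood test or by DESeq2, and the same thresholds called 6.01% of all genes. In edgeR 1 member (Ctsg) had an unadjusted p under 0.05, as did 4561 of all 17795 genes. All 5 primary members were higher in NPmut mice, with a median log2 fold change of 0.48 against 0.01 over all genes. Ctsg differed by 0.48 on the log2 scale (SE 0.21, adjusted p = 0.1683), Elane by 0.56 (SE 0.34, adjusted p = 0.3299), Prtn3 by 0.49 (SE 0.33), Mpo by 0.29 (SE 0.24), and Ms4a3 by 0.13 (SE 0.27). Ctsg was the single member of 10 with no overlap in this direction, a pattern shown by 10.4% of all genes. The later members had a median of 0.22, from -0.25 for Ltf (SE 0.84) to 1.00 for Camp (SE 0.95), with adjusted p-values of 0.5602 to 0.9959. The 95% interval of the log2 fold change ran from -1.80 to 2.42 for S100a9, which leaves a 2-fold difference in either direction possible. For Mpo it ran from -0.22 to 0.80 and left out 2-fold.

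Against NrasG12D HSPCs, both sets were higher in NPmut mice. All 10 members had a positive log2 fold change. In edgeR 7 (4 primary, 3 later) had an unadjusted p under 0.05, as did 4283 of all 17795 genes. None of the members was called by edgeR at 2-fold, where 4.41% of all genes were called. Ctsg was 1.66-fold higher (462 ± 49.4 CPM in 3 NrasG12D and 765 ± 207 CPM in 4 NPmut mice, SD), with an adjusted p of 0.04693. It was the only member past the p threshold, short of 2-fold, and 3.92% of all genes passed that threshold in this direction. It was also the only member without overlap between the groups, against 9.34% of all genes. With 1 mouse left out, the log2 fold change of Ctsg ran from 0.51 to 0.82. Over all edgeR and DESeq2 alternatives its adjusted p ran from 1.119e-05 to 0.1594. Elane differed by 0.82 (SE 0.34, adjusted p = 0.1639), Prtn3 by 0.83 (SE 0.33, adjusted p = 0.1484), Ms4a3 by 0.66 (SE 0.27, adjusted p = 0.1554), and Mpo by 0.40 (SE 0.24, adjusted p = 0.3366) on the log2 scale.

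The later genes had larger but less certain differences between NPmut and NrasG12D mice, with a median log2 fold change of 1.91. Camp differed by 2.79 (SE 1.06, adjusted p = 0.134), S100a9 by 2.37 (SE 1.04, adjusted p = 0.1992), Ngp by 1.91 (SE 1.02, adjusted p = 0.2856), S100a8 by 1.82 (SE 0.73, adjusted p = 0.1538), and Ltf by 1.33 (SE 0.89, adjusted p = 0.4036). DESeq2 called 1 member, Camp, with a log2 fold change of 2.81 and an adjusted p of 0.04843, and 5.67% of the genes it tested. NPmut mouse 3 decided the edgeR count. Without it, Camp (3.17, adjusted p = 0.04328), S100a8 (2.15, adjusted p = 0.04742), and S100a9 (2.76, adjusted p = 0.04774) were called, 3 of 10 members against 5.64% of all genes. NPmut mouse 3 had the lowest level of every later gene in its group, so that its removal raises the NPmut mean. These calls are therefore not separate support.

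NrasG12D HSPCs had lower later genes than control HSPCs in every member, without a call. The median log2 fold change was -1.79 for the later and -0.25 for the primary set, against -0.01 over all genes. S100a8 was at 26.6 ± 15.2 CPM in 3 control and 7.57 ± 5.39 CPM in 3 NrasG12D mice (SD), a log2 fold change of -1.81 (SE 0.76), with an unadjusted p of 0.03599 and an adjusted p of 0.5024 in the edgeR fit over all genes. S100a9 differed by -2.06 (SE 1.07, adjusted p = 0.6245), Camp by -1.79 (SE 1.09), Ngp by -1.68 (SE 1.05), and Ltf by -1.58 (SE 0.94). Control mouse 1 had 295 CPM summed over the later set, against 66.6 and 85.6 CPM in control mice 2 and 3. With 1 mouse left out, the differences stayed negative but were as small as -0.55 (Ltf), -0.58 (Ngp), -0.64 (Camp), -0.96 (S100a9), and -1.22 (S100a8). Both calprotectin genes had no overlap between the groups, 2 of 10 members, and 10.2% of all genes lay that way. Neither edgeR nor DESeq2 called any member, and the edgeR thresholds called 0.00562% of all genes. Among the primary genes Ms4a3 had the largest difference, -0.52 (SE 0.29, adjusted p = 0.6358).

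p53mut HSPCs did not differ from control HSPCs in any member by the thresholds used here. Every log2 fold change was negative, from -0.20 (Elane and Prtn3) to -0.04 (Mpo) in the primary and from -0.66 (S100a8) to -0.49 (Ltf) in the later set. No member had an unadjusted p under 0.05, which 415 of all 17795 genes had in edgeR. All adjusted p-values were 0.9998, edgeR and DESeq2 called no member, and edgeR called 0% of all genes. With the replicate number as a block in these 6 libraries, which deviated together by number, edgeR called 0.15% of all genes (25) and still no member. The 95% interval of Mpo ran from -0.58 to 0.51 and that of Ltf from -2.50 to 1.53 on the log2 scale. The interval of Ltf leaves a 2-fold difference in either direction possible.

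NPmut and p53mut HSPCs gave no call by edgeR or DESeq2, where edgeR called 5.24% of all genes, and no member without overlap in the higher direction, where 9.1% of all genes lay. The primary set had a median log2 fold change of 0.65 and the later set of 0.81. In edgeR 2 members had an unadjusted p under 0.05, beside 4267 of all 17795 genes. They were Ctsg with a difference of 0.65 (SE 0.21, adjusted p = 0.06888) and Elane with 0.77 (SE 0.34, adjusted p = 0.1926). p53mut mouse 2, the p53mut mouse with the highest primary genes, bore on this. Without it Elane was called, with 1.30 (SE 0.31, adjusted p = 0.02168), against 5.14% of all genes. Leaving out the highest p53mut mouse lowers the p53mut mean, so that this call is not separate support. Camp had the largest difference of the later set, 1.56 (SE 0.98, adjusted p = 0.373).

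The interaction asks whether NPmut mice depart from the sum of both single effects (NPmut minus NrasG12D minus p53mut plus control, on the log2 scale). All 10 estimates were positive, with a median of 0.90 for the primary and 2.49 for the later set. Ctsg stood at 0.90 (SE 0.31, adjusted p = 0.1616), Camp at 3.36 (SE 1.47, adjusted p = 0.292), and S100a8 at 2.48 (SE 1.02, adjusted p = 0.2657). These 3 had an unadjusted p under 0.05, beside 2859 of all 17795 genes in edgeR. None of the 10 members was called by edgeR or DESeq2, and edgeR called 1.34% of all genes. Without p53mut mouse 2, Ctsg was called with 1.19 (SE 0.28, adjusted p = 0.04054), beside 2.11% of all genes. This mouse had the highest Ctsg level of its group, so that its removal raises the estimate and the call is not separate support. The comparisons share the NPmut or the control libraries, so that their directions do not count as separate evidence.

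**Figure D2:**
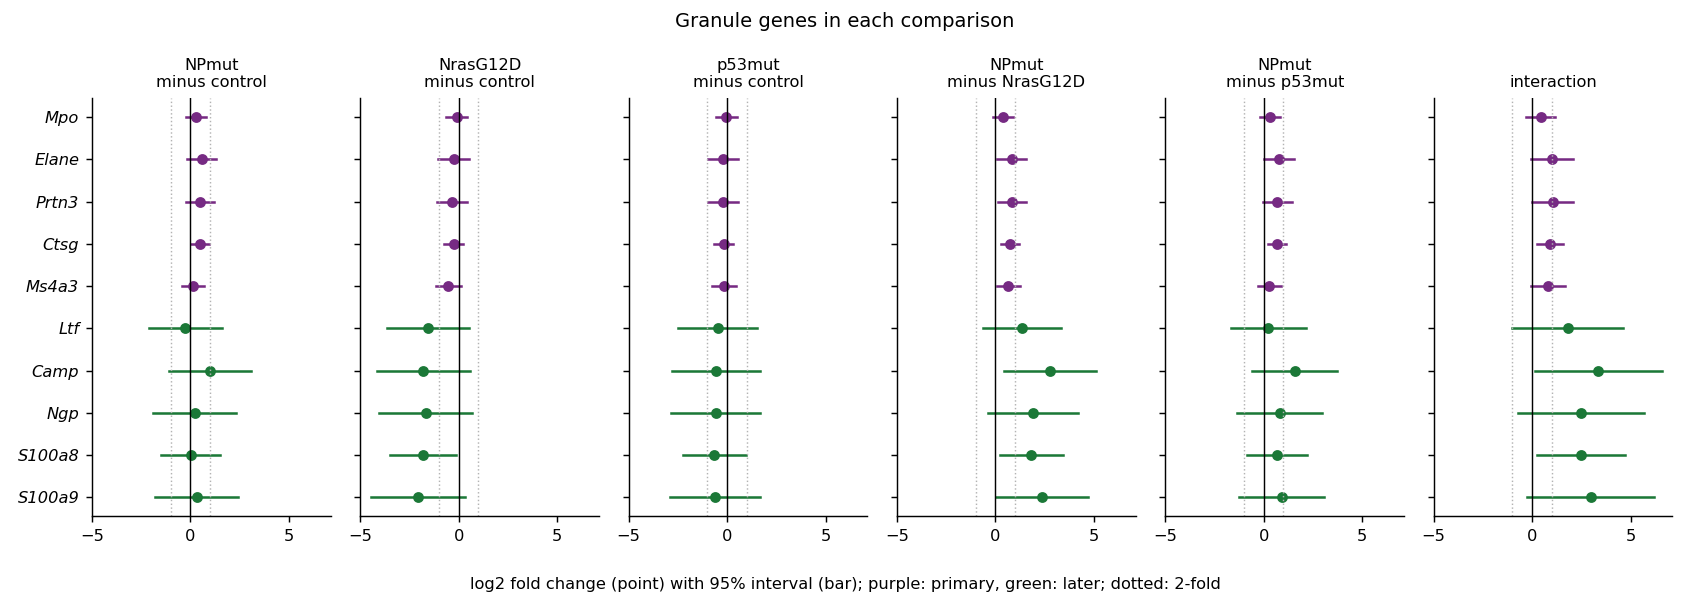
Log2 fold change of each member (points) with its 95% interval (bars) in the 6 comparisons, from the edgeR fit on 13 libraries; solid line, no difference; dotted lines, 2-fold. Intervals of the primary genes (purple) were narrow and those of the later genes (green) wide, and none of the 10 members was called in any comparison.

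Mice of the same genotype differed far more in the later than in the primary genes. The pooled within-group SD of log2 CPM was 0.31 (Ctsg) to 0.50 (Elane) for the primary genes and 1.10 (S100a8) to 1.57 (Camp) for the later genes, against a median of 0.30 over all genes tested. Only 0.247% (Camp) to 1.65% (S100a8) of all tested genes had an SD at least as large as a later member, while 29.2% (Elane) to 48.6% (Ctsg) were at least as variable as a primary member. Low counts also raise this SD. Among genes within 1 log2 unit of its level, 0.183% were at least as variable as Camp and 0.110% at least as variable as S100a9. The primary proteases had a spread above that of most genes of their own level too, with 1.80% at least as variable as Prtn3 among 500 such genes and 4.08% as Elane among 98.

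**Figure D3:**
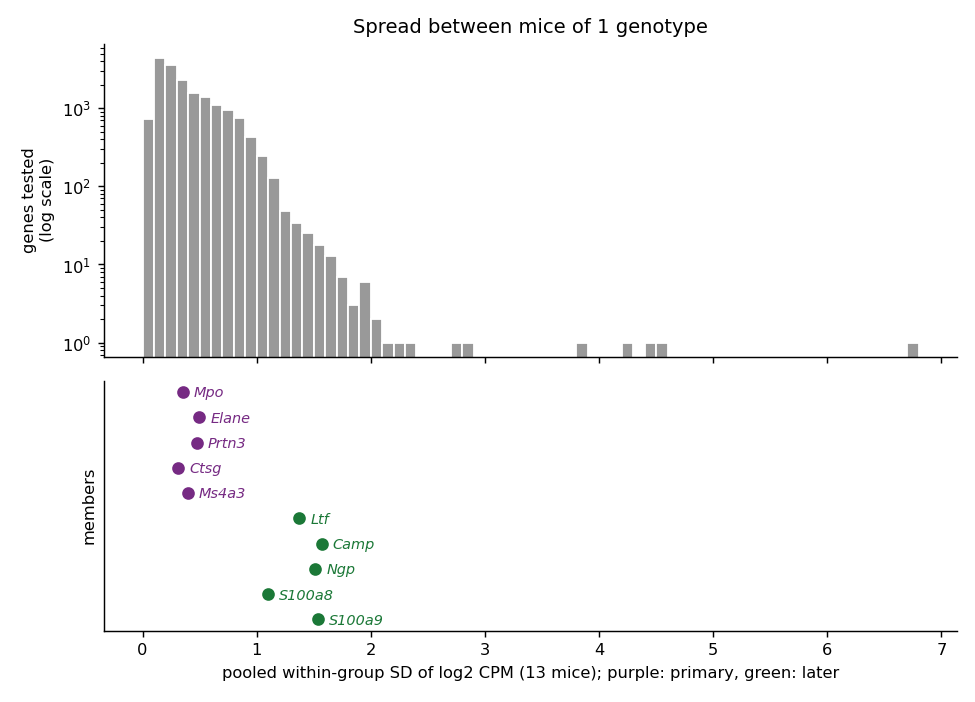
Pooled within-group SD of log2 CPM for all 17795 genes tested (top, bars of width 0.1, log count axis) and for the 10 members (bottom; purple, primary; green, later). The primary genes lay between 0.31 and 0.50 and the later genes between 1.10 and 1.57, where few genes are found.

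Within each set the genes moved together from mouse to mouse, and the sets moved apart from each other. After each gene was centered on its group mean, Pearson's r over the 13 mice was 0.89 to 0.93 for the 10 pairs of primary genes and 0.93 to 0.99 for the 10 pairs of later genes, but -0.14 to 0.40 (median 0.15) for the 25 pairs across the sets. Spearman's rho was 0.69 to 0.88, 0.87 to 0.97, and -0.27 to 0.46. Without NPmut mouse 3 and NrasG12D mouse 2, the 2 mice furthest from the later mean of their group, r was 0.89 to 0.95, 0.88 to 0.98, and -0.41 to 0.20. NPmut mouse 2, which had the highest primary genes of all mice, was not left out. Its part in the r values of the primary genes was not tested. These values describe 13 libraries that share depth and gate within each point, and no p-value was computed for them. The same mouse led most of a set: mouse 2 had the highest level of all 5 primary genes in the control, p53mut, and NPmut groups, and mouse 3 in the NrasG12D group. NrasG12D mouse 2 and NPmut mouse 3 were the lowest of their groups for all 5 later genes.

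The difference between the mean log2 CPM of the primary and of the later set summarizes both. It was 4.03, 6.37, and 5.72 in control mice, 4.83, 7.06, and 4.71 in p53mut mice, 6.13, 8.29, and 6.19 in NrasG12D mice, and 5.45, 5.26, 7.98, and 4.13 in NPmut mice. Group means were 5.37 ± 1.21 (SD, n = 3), 5.53 ± 1.32 (n = 3), 6.87 ± 1.23 (n = 3), and 5.70 ± 1.62 (n = 4). The 4 groups overlapped. Since the genes were chosen with results of these data known, no test was run on this score. In control and p53mut mice the mouse with the highest primary mean, mouse 2 in both groups, had the lowest later mean. NPmut mouse 2 had both a high primary mean (10.7) and a high later mean (5.42).

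**Figure D4:**
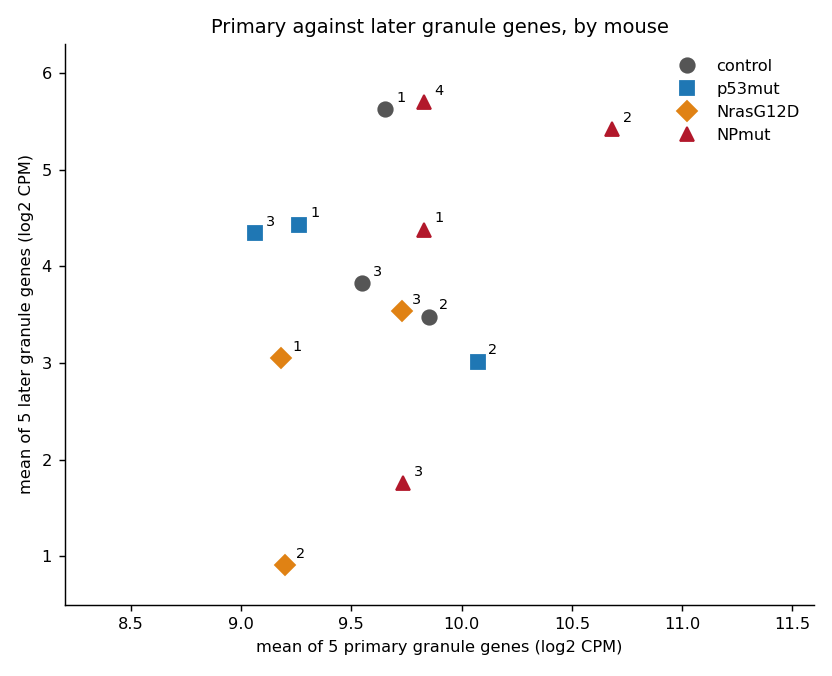
Mean log2 CPM of the 5 primary genes (x axis) against that of the 5 later genes (y axis) in each of 13 mice, marked by group and mouse number. The y axis spans 0.91 (NrasG12D mouse 2) to 5.70 (NPmut mouse 4) and the x axis 9.06 (p53mut mouse 3) to 10.7 (NPmut mouse 2), with the groups overlapping on the y axis.

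Other genes of the granules and of their control were read from lists written beside the members. Of 9 tested partners of the primary granule (processing enzymes, inhibitors, and matrix proteins), 0 were called by edgeR in any of the 6 comparisons, with 1 to 6 at an unadjusted p under 0.05, and DESeq2 called 1 in NPmut minus NrasG12D mice and 1 in the interaction. Between 415 and 4561 of all 17795 genes had such a p in a comparison. The most abundant were the chaperones Calr, with a mean of 1049 RPKM and log2 fold changes of -0.05 against both control and NrasG12D mice, and Canx, with 245 RPKM and differences of -0.07 and -0.03. Ctsc, the protease that activates the granule serine proteases, was just short of 2-fold in NPmut mice (0.94 against control, SE 0.26, adjusted p = 0.03334, and 0.99 against NrasG12D, SE 0.26, adjusted p = 0.03098) and was singled out after its values were seen.

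The list of other secondary and tertiary granule genes had calls where the 5 later members had none. Of 14 tested, 3 rose in NPmut mice against control, 4 against NrasG12D, and 2 against p53mut mice, where 6.01%, 4.41%, and 5.24% of all genes were called, and none fell. Cybb, the catalytic subunit of the phagocyte NADPH oxidase, rose by 1.82 (SE 0.29, adjusted p = 0.001853) against control and 1.97 (adjusted p = 0.001764) against NrasG12D mice. Hp (haptoglobin) rose by 1.19 (SE 0.27, adjusted p = 0.01466) and 1.45 (adjusted p = 0.006759), and Mmp8 (neutrophil collagenase) by 1.31 (SE 0.37, adjusted p = 0.03476) and 1.34 (adjusted p = 0.03603). Fcnb, a ficolin, rose by 2.604 (SE 0.74, adjusted p = 0.04628) against NrasG12D mice, and its difference from control mice was 1.14 (SE 0.67, adjusted p = 0.321). It had 15 to 68 counts in NrasG12D mice. NPmut mouse 3 (3.49 CPM) was below NrasG12D mouse 3 (4.40 CPM), and NPmut mice 1, 2, and 4 were at 7.23 to 33.5 CPM. Cyba, the partner of Cybb and next to Hp the most abundant gene of the list at 29.8 RPKM, had 0.88 (adjusted p = 0.01556) and 0.77 (adjusted p = 0.03434), short of 2-fold. Cybb and Hp are also expressed by monocytes, whose markers were higher in the same mice (6 of 9 called in each of these 2 comparisons), and the part of monocytes in their rise was not tested.

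Of 7 tested genes of mature neutrophils, 2 rose in NPmut mice against both control and NrasG12D mice, beside 6.01% and 4.41% of all genes called. Il1b, which encodes the cytokine IL-1β, rose by 2.77 (SE 0.80, adjusted p = 0.03957) against control and 3.75 (adjusted p = 0.017) against NrasG12D mice, and Trem1, an activating receptor, by 1.29 (SE 0.28, adjusted p = 0.009655) and 1.27 (adjusted p = 0.01253). Il1b was low outside NPmut mice, with 0.56 to 0.75 CPM in control mice. NPmut mouse 3 was below these at 0.21 CPM (4 counts), and NPmut mice 1, 2, and 4 were at 4.07 to 6.86 CPM. The part of monocytes in the rise of Il1b and Trem1 was not tested either. Csf3r, the receptor of granulocyte colony-stimulating factor and the most abundant of the list at 21.9 RPKM, differed by -0.33 (SE 0.12, adjusted p = 0.08772) from control mice. Padi4, the histone-modifying enzyme of neutrophil extracellular traps, at 4.24 RPKM, differed by -0.94 (SE 0.17, adjusted p = 0.003758) from NrasG12D mice, short of 2-fold, and was the 1 gene of the list called in the interaction, at -1.12 (SE 0.24, adjusted p = 0.03614), beside 1.34% of all genes. Ly6g, Fpr1, and Fpr2 had too few counts to be tested.

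Among 9 regulators of granulopoiesis, 2 rose in NPmut against control mice (6.01% of all genes called) and 1 against NrasG12D mice (4.41%). Cebpb, a C/EBP factor of stress granulopoiesis, rose by 1.16 (SE 0.32, adjusted p = 0.03662), and Cebpd by 1.05 (SE 0.31, adjusted p = 0.04488) and, against NrasG12D mice, by 1.09 (SE 0.31, adjusted p = 0.04313). The 2 most abundant were Myb, at 145 RPKM, with -0.26 (SE 0.13, adjusted p = 0.215), and Cebpa, at 66.5 RPKM, with 0.41 (SE 0.16, adjusted p = 0.1149). Cebpe, a factor that the later granule genes require, differed by -0.61 (SE 0.31, adjusted p = 0.2279) and was singled out after its values were seen. Of 8 tested locus neighbors and paralogs, 2 rose against control mice (6.01% of all genes called), Ms4a6c by 2.03 (SE 0.30, adjusted p = 0.001301) and S100a6 by 2.06 (SE 0.49, adjusted p = 0.01427), and against NrasG12D mice (4.41% of all genes called) Ms4a6c rose by 1.46 (SE 0.29, adjusted p = 0.008599) while Ms4a2, a mast cell and basophil gene, fell by 2.17 (SE 0.45, adjusted p = 0.01061). S100a6 was at 4.67 to 12.1 CPM in NPmut mice 1 to 3, but NPmut mouse 4 (1.95 CPM) was close to the control mice (1.09 to 1.89 CPM). S100a10 (41.8 RPKM) and S100a11 (38.1 RPKM), relatives of the calprotectin genes, had 0.44 (adjusted p = 0.4071) and 0.17 (adjusted p = 0.7029) against control mice. Between NrasG12D or p53mut and control mice, edgeR and DESeq2 called no gene of these lists, with 0 to 2 genes of a list at an unadjusted p under 0.05. That p was reached by 1642 of all 17795 genes in NrasG12D mice and by 415 in p53mut mice.

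The same split ran through the lists when their variation within genotypes was set against the 2 member sets. Of the 14 other secondary and tertiary granule genes, 7 had r above 0.7 with the later mean over 13 mice (Lcn2, Chil3, Itgb2l, Olfm4, Cd177, Mmp9, and Fcnb), a level reached by 0.86% of all tested genes. None of the 9 partners of the primary granule and none of the 9 regulators did. With the primary mean, 5 of 9 partners and 4 of 9 regulators had r above 0.7, against 5.73% of all tested genes. The regulators were Cebpd (0.88), Spi1, which encodes PU.1 (0.85), Cebpb (0.84), and Cebpa (0.71), while Cebpe had 0.46 with the primary and -0.04 with the later mean. Of 9 monocyte markers, 5 had r above 0.7 with the primary mean and 0 with the later mean, and the median r of the erythroid markers with the primary mean was -0.71. These are descriptions over 13 mice, chosen after values were seen, and members count toward their own set's mean. None of them was computed without NPmut mouse 2, the mouse with the highest primary genes.

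The genes most like each set by r within genotypes were taken from the 9703 other genes that averaged 3 or more on the log2 CPM scale. For the primary mean they were Hp (0.97), Fcgr3 (0.97), Ly6c2 (0.96), Atp6ap2 (0.96), and Igsf6 (0.96), of which Hp and Ly6c2 are on lists used above. For the later mean they were Lcn2 (0.95), Ska3 (0.89), Fam122a (0.88), Prim2 (0.87), and Nck1 (0.86). The level limit left out weaker granule genes with a higher r than Ska3, Chil3 (0.94), Itgb2l (0.91), and Olfm4 (0.90). Camp itself, at 2.05, would not have passed it. Hp was thus as close to the primary mean as the primary genes themselves (at least 0.97), and Lcn2, which encodes lipocalin 2 of the secondary granule, was below the later genes (at least 0.97). Levels of Lcn2 spanned 3.34 to 28.7 CPM over the mice and those of Hp 56.1 to 288 CPM. Those of Ska3 spanned only 19.3 to 26.0 CPM and those of Nck1 19.0 to 27.7 CPM. The highest Hp level was that of NPmut mouse 2, which also led the primary genes, and r without this mouse was not computed.

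**Figure D5:**
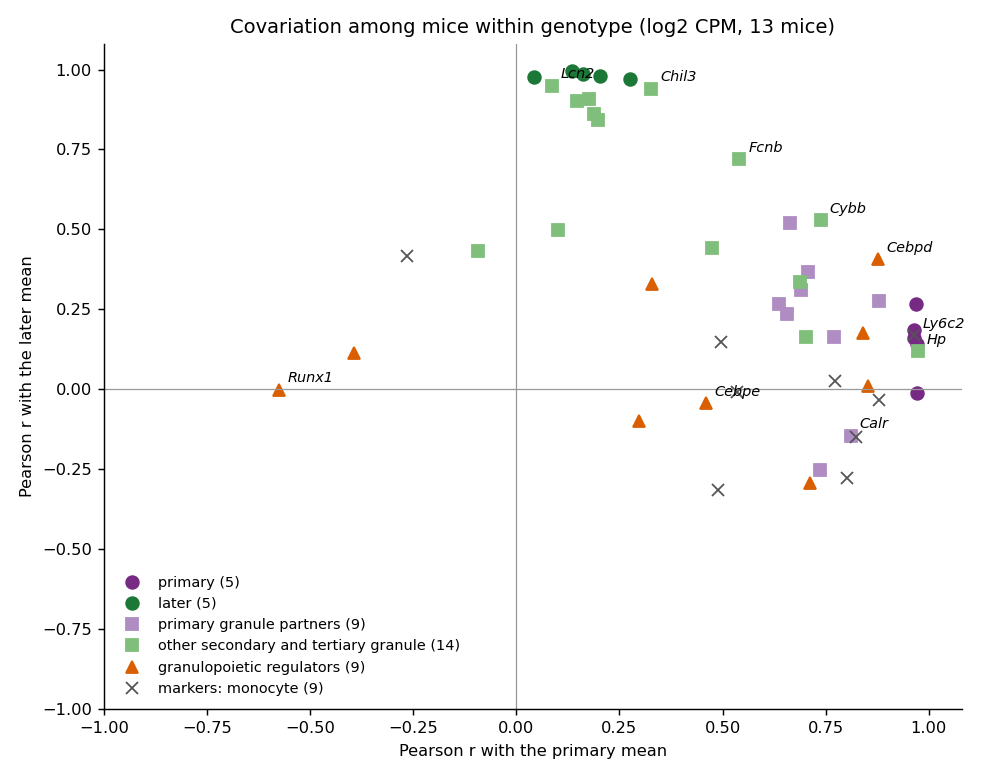
Pearson's r of each gene with the primary mean (x axis) and with the later mean (y axis), from log2 CPM centered on group means in 13 mice, for the members and 4 lists, with the number of genes tested in the key. Later members and 7 secondary and tertiary granule genes lay above 0.7 on the y axis, and primary members, partners, regulators such as Cebpd, and Hp lay to the right on the x axis.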

How the data were processed

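Total RNA of sorted Lin-cKit+ BM cells had been made into stranded libraries (SMARTer Pico kit), and the submitters' processing notes name STAR 2.6.1d, R 3.6.1, DESeq2 1.26.0, and GRCm38.p6 (the counting program and its strand setting are not given in the sources used here). The authors deposited raw counts per gene in 1 table, which was used as it stands. Of the 54838 Ensembl identifiers, 54809 matched GENCODE M21, and the other 29 held 0.0032% of the counts. In R 4.3.3, edgeR 4.0.16 (glmQLFit with robust estimation, glmQLFTest, TMM, filterByExpr) modeled 1 mean per group over the 13 libraries, and p-values were adjusted over 17795 genes. RPKM used library totals and exonic lengths, and log2 CPM a prior count of 2. Each result was also computed with DESeq2 1.42.0, without a fold minimum, with each mouse left out, with the replicate number as a block, on the compared groups alone, with stricter or no filtering of weak genes, and with RLE or no scaling factors. The edgeR step was tested on simulated counts. The members and lists were chosen with earlier results of these data known. All members were named, and from each other list of non-marker genes up to 4 genes called in NPmut minus control or NPmut minus NrasG12D mice and the 2 most abundant. Nothing says that a replicate number marks a shared litter or day. Same-numbered control and p53mut mice deviated together (r of 0.17, 0.16, and 0.15 over genes), and with the block no member was called in that comparison either. In both groups mouse 1 had high Ddx3y counts (876 in control, 865 in p53mut), and mice 2 and 3 had 2 to 14. The block thus also separates the sexes there, and the part of sex was not tested. The highest correlation between 2 libraries was 0.979 on the log2 CPM scale. Each library is 1 mouse, and intervals cover the spread between mice. The smallest library, with 12576174 counts, held 3377 counts of the later genes.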

Additional observations from a re-analysis of the deposited data

Results flagged for a closer look

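In the NPmut group of 4, mouse 2 stood apart in the primary set. Ms4a3 was at 199.6 CPM in NPmut mouse 2 and at 106 to 108 CPM in the other 3, and on the log2 CPM scale the gap to the nearest mouse was 0.964 of the whole range of the group (Dixon's ratio, above its 95% critical value for 4 samples). The mean log2 CPM of the 5 primary genes was 10.7 in this mouse and 9.73 to 9.83 in the other 3, a gap of 0.900 of the range. Chance alone would mark about 1 in 20 groups, 13 values were examined in this way, and they are not independent of each other. The same mouse had the largest library of the series, with 29124022 counts, and the lowest TMM factor, 0.892. Its Kit level was 288 CPM, against 370.4 to 449.9 CPM in the other NPmut mice. The part of these differences in its primary genes was not tested.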

How the results depend on the processing

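The count of members called stayed at 0 in all comparisons under RLE factors, library totals, both other filters (the stricter of which leaves out Camp), and only the compared groups. In NPmut minus NrasG12D mice it was 1 with DESeq2 (Camp), 1 with no minimum fold change (Ctsg), and 0 to 3 with 1 mouse left out, and it was 0 to 1 with 1 mouse left out in NPmut minus p53mut mice and in the interaction. Of 974 log2 fold changes of members under alternatives, 933 kept their direction and 41 did not, all of them uncalled. S100a8 in NPmut minus control mice turned to -0.0064 (RLE), -0.14 (library totals), -0.035 (at least 10 counts in every library), and -0.0047 (DESeq2), and Ms4a3 to -0.0040 (library totals, which move the median of all genes in that comparison from 0.01 to -0.11). With the replicate block and all libraries, S100a8 turned to -0.16 in that comparison and Ltf to -0.030 in NPmut minus p53mut mice. With the replicate block and only the compared groups and numbers 1 to 3, Ngp turned to -0.52, S100a8 to -0.54, and S100a9 to -0.63 in NPmut minus control mice, and Ltf to -0.55, Ngp to -0.050, and S100a9 to -0.075 in NPmut minus p53mut mice. That fit leaves out NPmut mouse 4. The block changed no call of a member.

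With 1 mouse left out, the log2 fold change in NPmut minus control mice ran from -0.66 to 0.78 for Ltf, -0.21 to 1.32 for Ngp, -0.31 to 0.60 for S100a8, -0.087 to 1.41 for S100a9, and -0.15 to 0.22 for Ms4a3. In p53mut minus control mice it ran from -0.87 to 0.54 for Ltf, -0.97 to 0.58 for Camp, -0.999 to 0.51 for Ngp, -0.97 to 0.48 for S100a9, -0.41 to 0.15 for Mpo, -0.73 to 0.010 for Elane, -0.46 to 0.022 for Ctsg, and -0.43 to 0.050 for Ms4a3. In NPmut minus p53mut mice it ran from -0.18 to 0.61 for Ltf and -0.0076 to 0.57 for Ms4a3. Apart from the calls made with fewer mice, the causes were not tested. The difference between the primary and the later mean moved by less than 1 SD under each alternative, and with 1 mouse left out the group means ran from 4.87 to 6.04 (control), 4.77 to 5.95 (p53mut), 6.16 to 7.24 (NrasG12D), and 4.95 to 6.23 (NPmut).

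Over all genes, edgeR called 1069 in NPmut minus control, 785 in NPmut minus NrasG12D, 933 in NPmut minus p53mut, 1 in NrasG12D minus control, and 0 in p53mut minus control mice, and 239 in the interaction. Counts beyond 1.5 times these were, in NrasG12D minus control mice, 75 (DESeq2), 159 (no filter), 3 (RLE), 0 (library totals), 81 (compared groups), and 28 and 61 (replicate block, all or compared libraries). In p53mut minus control mice they were 2 (DESeq2), 9 (no filter), 1 (compared groups), and 25 (replicate block, compared libraries), and in the interaction 607, 651 (no filter), and 366 (replicate block). With no minimum fold change 1944, 1581, and 1771 were called in NPmut minus control, NrasG12D, and p53mut mice. With at least 10 counts in every library 638 were called in NPmut minus control and 597 in NPmut minus p53mut mice, and on the compared groups 651, 440, and 478 in the 3 NPmut comparisons, the second 422 with the replicate block. With 1 mouse left out the counts were 586 to 1252, 444 to 991, 433 to 1152, 0 to 2, 0 to 1, and 61 to 531, in the order first given. With Camp at 4 counts in NrasG12D mouse 2, depth limits its value there, and 3 to 4 mice a group limit the others.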
